A study of Mus musculus with 8 samples.

Results

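The cytosolic ribosomal proteins are the protein subunits of the ribosome that translates messenger RNA outside the mitochondria, and their transcripts were followed here in group 2 innate lymphoid cells (ILC2s) of the mouse lung. Members were the genes present in both data sets whose symbol begins with Rpl or Rps and a number, together with Rpsa, Rplp0, Rplp1 and Rplp2. Rps6k kinases, Rps19bp1 and symbols with the suffix -ps were left out. The rule found 83 genes of the 14956 symbols shared by both data sets: 31 subunits of the small (40S) subunit, 46 of the large (60S) subunit and 6 paralogues of a subunit (Rps27l, Rpl22l1, Rpl36al, Rpl7l1, Rpl39l and Rps27rt). Another 10 symbols of the same pattern, such as Rpl3l and Rpl10l, occurred in the bulk data only, and 319 symbols with the suffix -ps held between 0.126% and 0.237% of the bulk signal. Subunits named outside the rule, such as Fau and Rack1, are given as a separate list.

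ILC2s are lymphocytes without antigen receptors that release type 2 cytokines after contact with IL-33, an alarm cytokine of epithelial cells. All mice were wild type C57BL/6. For the bulk comparison, female mice received nasal IL-33 over 3 days with dopamine, a catecholamine neurotransmitter (3 libraries), or with PBS, its vehicle (3 libraries), and each full-length Smart-Seq2 library was made from 2000 sorted ILC2s. For the single-cell comparison, sorted ILC2s of male mice were marked with hashtag antibodies and pooled in 1 droplet run, and the cell table names hashtags 6, 7 and 8 as IL-33 plus dopamine, hashtags 3, 4 and 5 as IL-33, and hashtags 1 and 2 as PBS. The labels call the bulk libraries biological replicates. Ages and the number of mice behind a library or a hashtag are not stated, so p-values measure the spread between these samples. The pool's label describes its mice as given IL-33 with PBS or dopamine, whereas the cell table lists PBS as a group apart from IL-33, and the groups are named as in the cell table.

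Each ribosome is built from ribosomal RNA and a full set of these proteins, and growing cells make them in matched amounts. In vertebrates their transcripts typically begin with a run of pyrimidines (C and T), the 5′ terminal oligopyrimidine tract, through which mTORC1, a growth-controlling kinase complex, can set their translation. Their transcripts are among the most abundant in growing cells. RNA levels alone say nothing of ribosome number or translation rate.

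The starts of 7 members that the results below turn on are shown from 10 bases before to 20 bases after the annotated start, with the longest pyrimidine run touching the 10 bases on either side of the start in capitals, as far as it lies in the window. Where runs tie in length, as in Rpl24 and Rps27rt, only the first is in capitals, and in Rps27rt a run of equal length begins at the annotated start. The windows are RefSeq sequences on the gene's own strand (GRCm38.p6, the build called mm10 by the submitters).
Rpl28: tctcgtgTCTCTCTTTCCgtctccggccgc
Rpl13a: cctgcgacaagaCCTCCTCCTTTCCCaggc
Rplp0: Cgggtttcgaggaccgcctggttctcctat
Rpl24: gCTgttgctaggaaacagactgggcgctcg
Rps27l: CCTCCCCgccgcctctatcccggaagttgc
Rps27: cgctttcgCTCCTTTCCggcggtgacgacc
Rps27rt: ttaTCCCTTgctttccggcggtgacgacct
Rpl28, a large-subunit protein, lies on the plus strand and its window is chr7:4792955-4792984. The windows of Rplp0, the stalk base protein, and Rpl24 are chr5:115559457-115559486 and chr16:55966265-55966294, both on the plus strand. The window of Rpl13a is chr7:45128726-45128755 on the minus strand. Rps27 was read at chr3:90213629-90213658 on the minus strand and its paralogue Rps27l at chr9:66946076-66946105 on the plus strand. Rps27rt, at chr9:114982720-114982749 on the minus strand, shares 19 consecutive bases of its window with Rps27. The annotated starts of these 7 lie 0 to 25 bases from the start of the principal transcript in GENCODE M21.

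RefSeq starts were matched for 63 of the 83 members. A pyrimidine run of at least 8 bases touching the 10 bases on either side of the start was present in 27 of these 63 (42.9%), against 13.3% of the 8107 promoters of genes tested in bulk. The motif CTTTC stood within 20 bases of the start, on the gene's own strand, in 19 members (30.2%) and in 4.60% of those 8107 promoters. On either strand it was found in 34.9% of members and 8.04% of those promoters. CGGAAG, the core of ETS family binding sites, occurred on either strand of the 300-base window in 66.7% of members and 35.5% of those promoters. Members with a pyrimidine run of at least 8 had a median bulk log2 fold change of -0.33, against -0.29 in the 36 members with a shorter run. A match describes these letters only, and annotated starts can differ from the starts used in ILC2s.

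The genes lie on 19 chromosomes, with 14 of them on chromosome 7. A total of 30 members carry annotated small nucleolar RNA genes on their own strand, 58 in all. Their median bulk log2 fold change was -0.34, and that of the other members was -0.30.

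Together the 83 genes made up between 26.7% and 38.2% of all TPM in the bulk libraries and between 31.5% and 32.7% of all UMIs in the hashtags. TPM is the read share of a gene corrected for transcript length and scaled to the same total in every library, and UMI counts are given as CPM, the count scaled to the hashtag's total. All 83 passed the filter on low values in both data sets. The 77 subunits ranged from a mean of 1034 TPM (Rps2, a protein of the small subunit) to 10065 TPM (Rps27), and from 805 to 10104 CPM. Rps27 and Rplp1 had the highest TPM, with means of 10065 and 9956. Most paralogues were lower, with means of 1148 TPM for Rpl36al, 772 for Rpl22l1, 208 for Rps27l, 74.4 for Rps27rt and 34.9 for Rpl7l1. Rpl36al lay above Rps2 in TPM, and Rpl22l1, at 839 CPM, lay above the lowest subunit in CPM. Rpl39l was near the floor, with 0 TPM in 3 of the 6 libraries, a highest value of 4.79 TPM, and 89 UMIs over all cells.
The 2 data sets ordered the genes differently. Over the 77 subunits Spearman's rho between mean TPM and mean CPM was 0.34, a description across genes that share the same libraries. Rps20 had rank 70 of 83 by TPM and rank 9 by CPM, with means of 1720 TPM and 5864 CPM. Rpl23a had rank 11 by TPM and rank 68 by CPM, with means of 5678 TPM and 2161 CPM. TPM is corrected for length and comes from reads along the whole transcript, whereas CPM counts 3′ ends without a length correction.

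**Figure D1:**
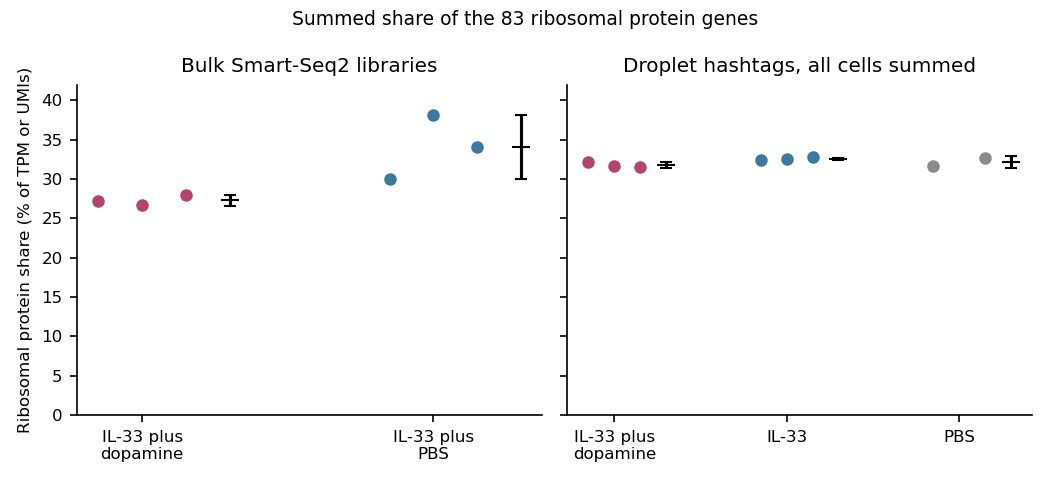
Percent of all TPM (left, 1 point per bulk library) or of all UMIs (right, 1 point per hashtag) that fell on the 83 ribosomal protein genes, with the group mean and SD beside the points. The 3 bulk IL-33 plus dopamine libraries lie between 26.7% and 28.0%, below the 3 IL-33 plus PBS libraries, while the hashtags span 31.5% to 32.7%.

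The bulk comparison asked what dopamine did to ILC2s under IL-33. Ribosomal protein transcripts took a smaller share of the bulk signal with dopamine: 27.2%, 26.7% and 28.0% of TPM in the IL-33 plus dopamine libraries, against 29.95%, 38.2% and 34.1% in the IL-33 plus PBS libraries. The groups did not overlap, with means of 27.3% ± 0.672 and 34.1% ± 4.11 (SD, n = 3 each), and the PBS libraries differed widely among themselves. Small-subunit genes held 12.3% ± 0.281 against 14.7% ± 1.79 of TPM, and large-subunit genes 14.8% ± 0.393 against 19.1% ± 2.30. Single genes had a log2 fold change below 0 with dopamine in 80 of 83 cases, beside 28.6% of all tested genes. Of the 83, 55 had no overlap between the groups, all in the lower direction, where 6.57% of the 11222 tested genes were lower without overlap and 23.5% were higher.

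No member passed limma's test with Benjamini-Hochberg adjustment over all 11222 genes (adjusted p under 0.05), where 0.0356% of all genes passed as higher and 0.0% as lower. At an unadjusted p under 0.05, 49 of 83 members were lower and 0 higher, beside 4.62% and 19.5% of all genes. The median log2 fold change of the members was -0.33 on the log2(TPM + 1) scale, while that of all tested genes was 0.49, a shift that median-of-ratios scaling reduced to 0.06. Relative to all genes, the median member was therefore at -0.82 on the log2 scale. Under median-of-ratios scaling all 83 members were below 0, beside 47.6% of all genes, and the relative median was -0.93. Under quantile normalization 60 were below and 23 above, beside 49.1% of all genes below 0, and the relative median was -0.12.
The outcome of the adjusted test changed with the libraries and weights used: 36 members passed as lower without IL-33 plus PBS library 1, 2 without IL-33 plus PBS library 3, 53 with limma's array weights and 1 after quantile normalization. The share of all genes that passed in these refits is not given, so the counts cannot be read as particular to the members.

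Other features of the libraries moved with the groups. Genes with at least 1 TPM numbered 11502, 11529 and 11745 with dopamine, against 11384, 9822 and 10525 with PBS. The PBS library with the fewest detected genes, library 2, had the highest ribosomal protein share, and without it the relative median was -0.56 instead of -0.82. Markers of T cells (5 of 5 in the data) summed to between 162 and 530 TPM with dopamine and between 21.4 and 129 TPM with PBS, where Cd8a was at 0 in all 3 libraries. Markers of NK cells and ILC1s (5 of 5, none at 0 in a whole group) summed to between 95.7 and 177 TPM with dopamine and between 6.04 and 42.5 TPM with PBS. ILC2 markers (10 of 10, none at 0) summed to between 3071 and 4138 TPM with dopamine and between 2101 and 3234 TPM with PBS. Lung epithelium markers (3 of 3) summed to between 8.87 and 20.3 TPM with dopamine, where Scgb1a1 was at 0, and between 5.80 and 8.44 TPM with PBS, where Sftpc and Scgb1a1 were at 0. Endothelium markers (2 of 2, Cdh5 at 0 in both groups) summed to between 23.8 and 28.0 TPM with dopamine and between 7.33 and 22.1 TPM with PBS. The sums of B cell, erythroid and myeloid markers overlapped between the groups. The part of these differences in the ribosomal protein result was not tested. In bulk values, fewer cells of a type and less RNA per cell cannot be told apart.

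**Figure D2:**
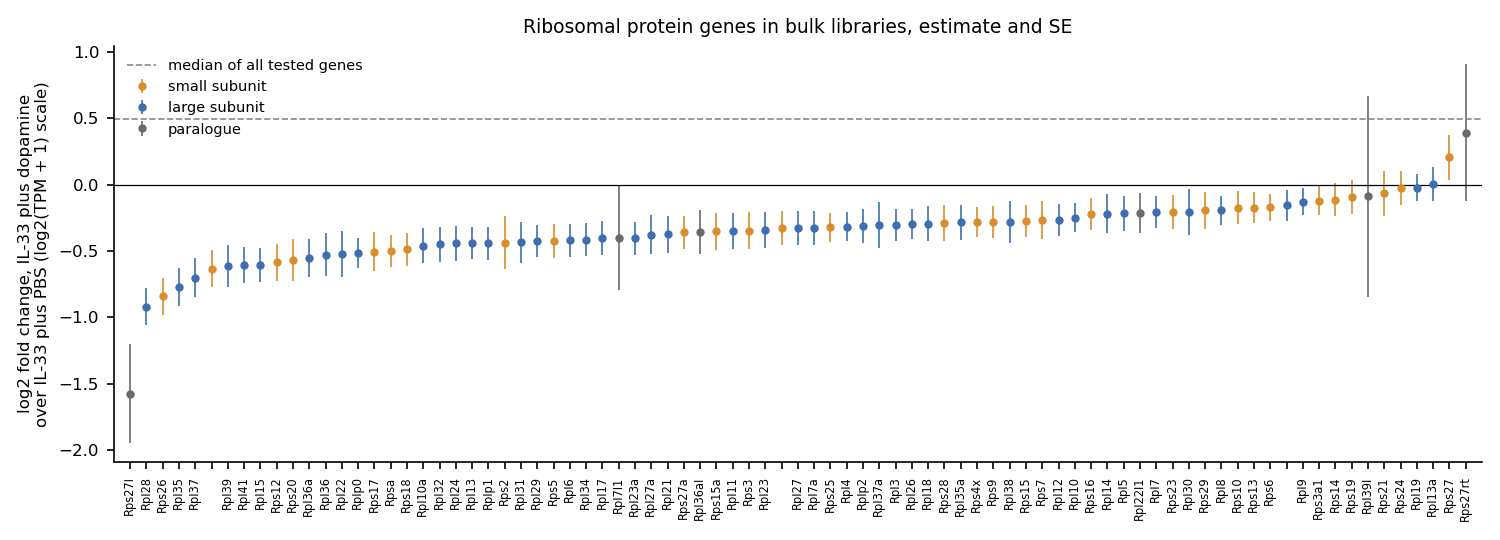
log2 fold change of each of the 83 genes in bulk libraries, IL-33 plus dopamine over IL-33 plus PBS on the log2(TPM + 1) scale, with its SE from limma and colours for the small subunit, the large subunit and the paralogues (some points carry no name). All but 3 genes lie below 0 (solid line), and all lie below the median of all tested genes at 0.49 (dashed line).

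Among small-subunit genes the lowest was Rps26, a protein near the messenger exit channel. It had 1878, 1767 and 1944 TPM with dopamine, against 3036, 3970 and 3082 TPM with PBS. Every dopamine library lay below every PBS library, with a log2 fold change of -0.84 ± 0.14 (SE) and an adjusted p of 0.070 (limma). That p ranged from 0.0075 to 0.24 over the alternatives and passed with array weights and without IL-33 plus PBS library 1 or 3. Rps12, a small-subunit protein, had 4609, 3976 and 4699 TPM with dopamine, against 6317, 7953 and 5800 TPM with PBS. The groups of Rps12 did not overlap. Rpsa, also known as the laminin receptor, had 3516, 3345 and 3978 TPM with dopamine, against 4765, 5747 and 4824 TPM with PBS. Rps3, at the messenger entry, had 1601, 1597 and 1822 TPM with dopamine, against 1836, 2279 and 2286 TPM with PBS. Both were lower in every dopamine library, though the closest libraries of Rps3 were 1822 and 1836 TPM. Rps6, the substrate of the S6 kinases, had 5011, 4485 and 4520 TPM with dopamine, against 5378, 5241 and 5125 TPM with PBS, a log2 fold change of -0.17 ± 0.10. Rps28 and Rps29, small-subunit proteins, overlapped between the groups. Over the 31 small-subunit genes, 30 had a log2 fold change below 0, 16 were lower at an unadjusted p under 0.05, and the median was -0.28, where 28.6% of all genes were below 0 and 4.62% lower at that p.

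Rps27, Rps27rt and Rpl13a were the 3 members with a log2 fold change above 0, and none kept that sign throughout. Rpl13a, at 0.0044, was below 0 in 6 of 16 alternatives, and Rps27rt, at 0.39 ± 0.52, in 2 of 16, median-of-ratios scaling among them for both. Rps27, a zinc finger protein of the small subunit, had 9627, 10519 and 11930 TPM with dopamine, against 6937, 9765 and 11609 TPM with PBS, a log2 fold change of 0.21 ± 0.17 that did not pass (adjusted p = 0.46, limma) and was below 0 under median-of-ratios scaling and with array weights. The groups overlapped. Its paralogue Rps27l, which in human cells is known as a p53-inducible gene, had the lowest log2 fold change of all members. It had 153, 60.2 and 104 TPM with dopamine, against 364, 375 and 189 TPM with PBS. The log2 fold change was -1.57 ± 0.37 with an adjusted p of 0.083 (limma), between 0.036 and 0.25 over the alternatives, and it passed with array weights. The groups did not overlap. Rps27rt, a second gene of nearly the same sequence, had between 61.4 and 98.4 TPM with dopamine and between 23.9 and 128 TPM with PBS. Its value is uncertain, because 89.8% of its 50-base words also occur in the Rps27 transcript, and the longest identical stretch is 341 bases.

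Large-subunit genes had a median log2 fold change of -0.36, with 45 of 46 below 0 and 32 lower at an unadjusted p under 0.05, beside the same 28.6% and 4.62% of all genes. Rpl28 was the lowest, with 2092, 1660 and 1993 TPM with dopamine, against 3260, 4093 and 3520 TPM with PBS. No dopamine library came near a PBS library, and the log2 fold change was -0.92 ± 0.14 (-1.41 relative to all genes). Its adjusted p was 0.068 (limma), ranged from 0.0064 to 0.24 over the alternatives, and passed with array weights, after quantile normalization and without IL-33 plus PBS library 1 or 3. Rpl35, at the exit of the peptide tunnel, had 993, 952 and 1168 TPM with dopamine, against 1724, 1952 and 1629 TPM with PBS. Rpl37, a small zinc-binding protein, had 1057, 903 and 979 TPM with dopamine, against 1412, 1778 and 1596 TPM with PBS. For both genes every dopamine library lay below every PBS library.

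The acidic stalk, which recruits translation factors to the large subunit, is made of Rplp0, Rplp1 and Rplp2. Rplp0 had 4713, 4597 and 4767 TPM with dopamine, against 5891, 7564 and 6762 TPM with PBS. Rplp1 had 7696, 7986 and 9665 TPM with dopamine, against 10080, 12938 and 11369 TPM with PBS. The groups of both genes did not overlap. Rplp2 had 3832, 4316 and 4632 TPM with dopamine, against 4541, 5902 and 5468 TPM with PBS, with overlap of 1 library. Log2 fold changes were -0.51 ± 0.12, -0.44 ± 0.12 and -0.31 ± 0.13 (SE) in that order. Rpl5 and Rpl11, which together with 5S RNA can bind the p53 regulator Mdm2, had log2 fold changes of -0.21 ± 0.13 and -0.35 ± 0.14. Rpl3, at the peptidyl transferase centre, stood at -0.30 ± 0.12, and Rpl10, which joins the 60S particle late, at -0.25 ± 0.11. For these 4 genes, as for all others, the adjusted test was not passed. Rpl38 stood at -0.28 ± 0.16 and Rpl7 at -0.21 ± 0.12, and their groups overlapped. Rpl13a, released from the ribosome in interferon-treated human monocytes, had 4885, 5934 and 6153 TPM with dopamine, against 5028, 5721 and 6145 TPM with PBS, and the groups overlapped.

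Paralogues can replace a subunit in part of the ribosomes. Rpl22 had 1017, 837 and 1046 TPM with dopamine, against 1129, 1620 and 1452 TPM with PBS, and its paralogue Rpl22l1 had 812, 655 and 681 TPM with dopamine, against 812, 853 and 816 TPM with PBS. The groups of both genes stood apart, those of Rpl22l1 by under 1 TPM between the closest libraries. Rpl36a and its paralogue Rpl36al had log2 fold changes of -0.55 ± 0.15 and -0.36 ± 0.16, and Rpl36al overlapped between the groups. Rpl39 had a log2 fold change of -0.61 ± 0.16, and Rpl39l was too low for a comparison. The pairs share no 50-base word between transcripts, apart from Rps27rt and Rps27.

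The lists below were chosen with results of these data known and are described by counts and medians. Of the subunits with other names, Rack1, a scaffold on the small subunit, had 1257, 1179 and 1232 TPM with dopamine, against 1537, 1669 and 1488 TPM with PBS. Fau, which is made fused to a ubiquitin-like protein, had a log2 fold change of -0.04 ± 0.11. Across all further lists no gene passed the adjusted test in bulk. Mitochondrial ribosomal proteins, the separate set that serves the mitochondrion, had a median of -0.34 over 78 genes, with 11 lower and 0 higher at an unadjusted p under 0.05, beside 4.62% and 19.5% of all genes. Elongation factors had a median of -0.23 over 6 genes, and 10 other transcripts known for a pyrimidine start had a median of -0.09. In that last list 3 genes were lower and 2 higher at an unadjusted p under 0.05, and 3 were lower and 0 higher without overlap, beside 6.57% and 23.5% of all genes. Its 3 genes with the smallest p were Npm1 (-0.69 ± 0.18), Naca (-0.52 ± 0.14) and Btf3 (-0.50 ± 0.17), each with lower TPM in every dopamine library. Ribosome assembly factors had a median of 0.56 over 35 genes, beside 0.49 for all genes. At an unadjusted p under 0.05, 9 of them were higher and 3 lower, beside 19.5% and 4.62% of all genes, and 10 were higher and 6 lower without overlap, beside 23.5% and 6.57%. Gar1, of the nucleolar H/ACA complex, had 5.79, 11 and 8.65 TPM with dopamine, against 35.5, 26.7 and 19.6 TPM with PBS. Nop56, of the nucleolar C/D complex, had 207, 256 and 264 TPM with dopamine, against 143, 121 and 144 TPM with PBS. RNA polymerase I genes had a median of 0.75 over 14 genes, initiation factors 0.15 over 30, and the mTORC1 and MYC axis 0.66 over 21. Eef2, which moves the ribosome along, differed widely among the PBS libraries, with 2240, 2207 and 2450 TPM with dopamine, against 2465, 523 and 1012 TPM with PBS.

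The single-cell data asked the same of male ILC2s, counted by molecule. Here the ribosomal protein share differed by less than 1 percentage point: 32.2%, 31.6% and 31.5% of UMIs in the IL-33 plus dopamine hashtags, against 32.4%, 32.5% and 32.7% in the IL-33 hashtags. The groups did not overlap, and the mean difference of -0.77 percentage points stayed between -0.98 and -0.65 when each hashtag was left out. Of the 83 genes, 64 had a log2 fold change below 0, beside 49.9% of all tested genes. Without overlap, 29 members were lower and 2 higher (Rpl12 and Rps27rt), beside 6.93% and 7.81% of the 10559 tested genes. None passed edgeR's quasi-likelihood test with Benjamini-Hochberg adjustment over those genes, where 0.0% passed as higher and 0.0284% as lower. At an unadjusted p under 0.05, 6 members were lower and 0 higher in edgeR, beside 4.66% lower and 4.81% higher of all genes. In DESeq2, 2 members were lower and 0 higher, beside 2.27% and 2.82% of all genes. The median member stood at -0.03 on the log2 scale, and all genes at 0.00. The depth behind a hashtag was 5828078 to 9268932 UMIs in these 6 hashtags, with medians of 4201 to 5692 UMIs per cell, and hashtag 8 had the fewest per cell. Without hashtag 8, 76 of the 83 genes were below 0, beside 49.95% of all genes. There 12 members were lower and 0 higher at an unadjusted p under 0.05, beside 3.56% and 3.51% of all genes. Leaving out each other hashtag in turn gave 57 to 62 members below 0, beside 48.9% to 50.5% of all genes. At that p these refits gave 2 to 9 members lower and 0 higher, beside 2.74% to 5.32% and 2.83% to 6.35% of all genes. Marker sums of other cell types differed between these hashtags as well. Lung epithelium markers (3 of 3, none at 0 in a whole group) summed to between 109 and 149 CPM with IL-33 plus dopamine and between 97.5 and 104 CPM with IL-33. T cell markers (4 of 5 in the data, none of these at 0 in a whole group) summed to between 12.3 and 14.5 CPM with IL-33 plus dopamine and between 14.9 and 19.6 CPM with IL-33. Neither sum overlapped between the groups, and those of B cell, NK cell and ILC1, endothelium, erythroid and myeloid markers did. Their part in the ribosomal protein values was not tested.

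**Figure D3:**
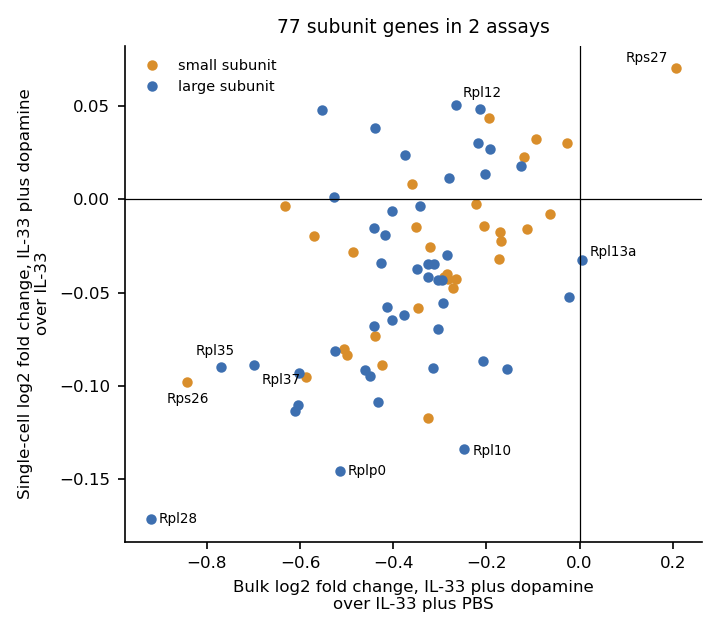
log2 fold change with dopamine under IL-33 in bulk libraries and in single cells, 1 point for each of the 77 subunit genes, coloured by subunit. Below 0 lie 75 of the 77 in bulk, 60 in single cells and 59 on both axes. The vertical axis spans a narrower range than the horizontal one.

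Across the 77 subunits Spearman's rho between the bulk and single-cell log2 fold changes was 0.49, a description across genes that share their libraries. In bulk 75 of the 77 were below 0, in single cells 60, and in both 59. With nearly all below 0 in bulk, the 59 adds little to the 60. Rpl28 was the lowest subunit in both data sets. In single cells it had 2866, 2860 and 2585 CPM in the IL-33 plus dopamine hashtags, against 3152, 3031 and 3182 CPM in the IL-33 hashtags. The groups did not overlap, but the log2 fold change of -0.17 ± 0.05 (SE) did not pass (adjusted p = 0.40, edgeR). Rpl10 had 2161, 2059 and 2050 CPM in the IL-33 plus dopamine hashtags, against 2263, 2264 and 2360 CPM in the IL-33 hashtags. Its groups did not overlap either, and the log2 fold change was -0.13 ± 0.05. Rplp0 had 4166, 4232 and 3677 CPM in the IL-33 plus dopamine hashtags, against 4542, 4191 and 4627 CPM in the IL-33 hashtags, with overlap. Rps26, among the lowest in bulk, had 3054, 2889 and 2601 CPM in the IL-33 plus dopamine hashtags, against 3076, 2896 and 3172 CPM in the IL-33 hashtags. Its groups overlapped too.

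Rps27l, lowest in bulk, had 78.7, 108 and 73.8 CPM in the IL-33 plus dopamine hashtags, against 94.4, 82.7 and 85.5 CPM in the IL-33 hashtags, and the log2 fold change was -0.01 ± 0.13. The groups overlapped. Rps27 had 5428, 5371 and 5682 CPM in the IL-33 plus dopamine hashtags, against 5197, 5441 and 5096 CPM in the IL-33 hashtags. Rps27rt stood at 8.89% to 9.11% of the Rps27 CPM in every hashtag and is uncertain for the shared sequence given above. Rpl12, a protein of the stalk base, had 4066, 4020 and 4154 CPM in the IL-33 plus dopamine hashtags, against 3919, 3981 and 3944 CPM in the IL-33 hashtags. It was higher without overlap here, with a log2 fold change of 0.05 ± 0.05, and lower without overlap in bulk, at -0.26.

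The comparison of IL-33 with PBS set the IL-33 hashtags against those that the cell table names PBS. The pool's label describes its mice as given IL-33 with PBS or dopamine, so whether the PBS hashtags went without IL-33 is uncertain. This comparison shares the IL-33 hashtags with the one above, so the values are given side by side and the comparisons are not independent. No member passed edgeR's adjusted test, where 0.352% of 10506 genes passed in each direction. At an unadjusted p under 0.05, 7 members were higher and 14 lower in edgeR, beside 6.56% and 6.87% of all genes. In DESeq2, 2 were higher and 2 lower, beside 3.16% and 3.87% of all genes. Without overlap, 33 members were higher and 15 lower, beside 20.9% and 13.6% of all genes. By log2 fold change 38 members were above 0 and 45 below, with a median of -0.01, beside 49.7% and 50.3% of all genes. In every single-cell comparison overlap was judged on CPM, whereas edgeR's fold changes carry a further scaling between hashtags. The 2 can therefore differ in direction, as for Rpl23, higher without overlap at a log2 fold change of -0.0030. The share of UMIs was 32.4%, 32.5% and 32.7% in the IL-33 hashtags, against 31.6% and 32.7% in the PBS hashtags, and the groups overlapped. The PBS hashtags held 311 and 748 cells and 1397576 and 3358246 UMIs, against 5828078 to 9268932 UMIs in the IL-33 hashtags. NK cell and ILC1 markers summed to 152 to 163 CPM with IL-33 and 183 to 195 CPM with PBS. Lung epithelium markers summed to 97.5 to 104 and 117 to 134 CPM in that order. Other marker sums overlapped, and the part of these differences was not tested.

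Rplp0 and Rpl24 had the highest log2 fold changes among members with a mean of at least 20 CPM. Rplp0 had 4542, 4191 and 4627 CPM in the IL-33 hashtags, against 3613 and 3832 CPM in the PBS hashtags. Rpl24, of the bridge between the subunits, had 2747, 2509 and 2493 CPM in the IL-33 hashtags, against 2175 and 2153 CPM in the PBS hashtags. Neither overlapped, and log2 fold changes were 0.22 ± 0.05 for Rplp0 and 0.22 ± 0.06 for Rpl24, with adjusted p of 0.081 and 0.11 (edgeR). Both passed when no filter on low counts was used, and Rplp0 passed without hashtag 4. Rps29 had 6174, 6502 and 6640 CPM in the IL-33 hashtags, against 7051 and 7319 CPM in the PBS hashtags. Rps24 had 9488, 10114 and 9871 CPM in the IL-33 hashtags, against 10598 and 10740 CPM in the PBS hashtags. Both were lower in every IL-33 hashtag, with log2 fold changes of -0.20 ± 0.04 and -0.16 ± 0.04 and adjusted p of 0.062 and 0.094 (edgeR). Rpl28 had a log2 fold change of 0.14 ± 0.05 here, and the paralogue Rpl22l1 one of -0.16 ± 0.06. Small-subunit genes had a median of -0.04 and large-subunit genes one of 0.01.

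IL-33 plus dopamine against PBS, which shares hashtags with both comparisons, gave no member past edgeR's adjusted test, where 0.0% of 10612 genes passed. At an unadjusted p under 0.05, Rps29 and Rpl22l1 were lower and 0 were higher in edgeR, beside 2.53% and 2.61% of all genes. In DESeq2, 0 were lower or higher, beside 0.999% of all genes in each direction. The edgeR count moved with single hashtags: without hashtag 8, 21 members were lower and 2 higher, beside 4.51% and 3.95% of all genes. Without hashtag 6 or 7, 0 were lower or higher. Without overlap, 21 members were lower and 1 higher, beside 9.09% and 14.9% of all genes. Rpl24 was the higher one, with 2601, 2554 and 2236 CPM in the IL-33 plus dopamine hashtags, against 2175 and 2153 CPM in the PBS hashtags.

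**Figure D4:**
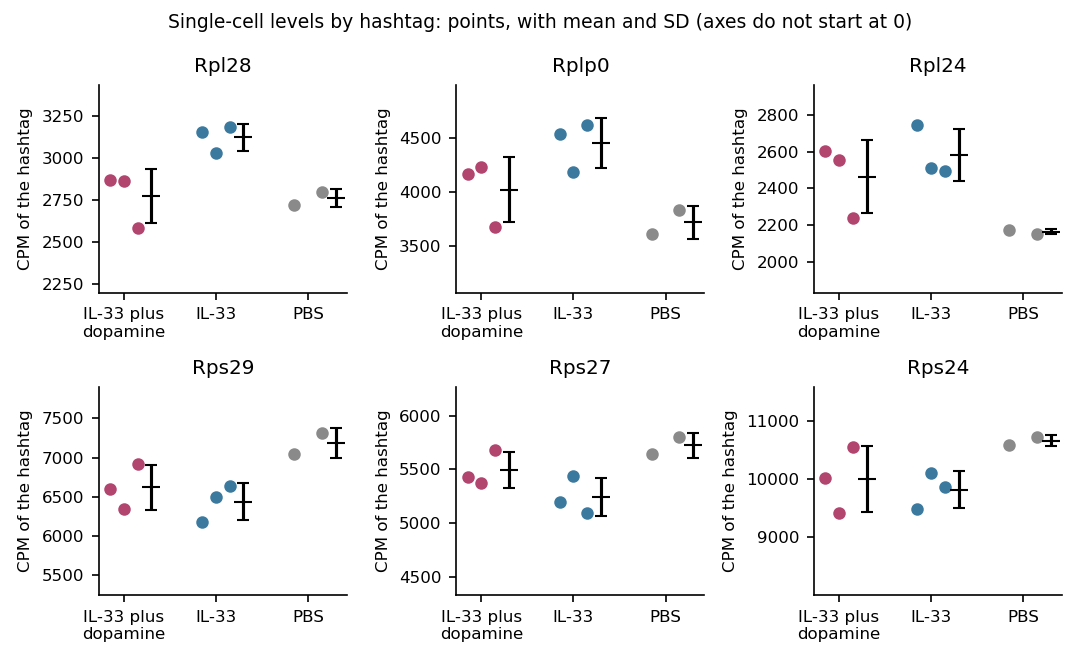
CPM of selected ribosomal protein genes in each hashtag, grouped as IL-33 plus dopamine, IL-33 and PBS, with axes that do not start at 0. Rpl28 lies between 2585 and 2866 CPM with IL-33 plus dopamine, between 3031 and 3182 CPM with IL-33, and at 2723 and 2799 CPM with PBS.

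The authors divided the cells into 6 clusters, numbered 0 to 5, from these same cells, so differences between clusters are described without a test. Ribosomal protein transcripts held the largest share in cluster 0, with a mean over hashtags of 35.2%, and the second largest in cluster 1, with 33.7%, in that order in all 8 hashtags. Clusters 3 and 5 were lowest, with 29.1% and 30.1%, where hashtag 1 had only 8 cells in cluster 5 and was left out of the levels of single genes there. Cluster 5 had a median of 8142 UMIs per cell and cluster 0 one of 4082, and the part of depth in these shares was not tested. The members kept nearly the same proportions to each other: relative to the median member, 80 of 82 genes varied by under 0.5 on the log2 scale over the clusters. Rps27l varied most, with 44.3 ± 5.32 CPM in cluster 0 (SD, n = 8 hashtags), 135 ± 28.5 CPM in cluster 3 (n = 8) and 137 ± 32.8 CPM in cluster 5 (n = 7). Rpl7l1, a paralogue of Rpl7, had 23.5 ± 7.18 CPM in cluster 0 and 45.8 ± 8.70 CPM in cluster 4 (SD, n = 8 each). Rplp0, Rpl22l1 and Rps26 followed with ranges of 0.42, 0.41 and 0.39 on the log2 scale.

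Within clusters, IL-33 plus dopamine was compared with IL-33 over the same 6 hashtags. No member passed edgeR's adjusted test in any cluster, where 0.0%, 0.0375%, 0.0%, 0.0%, 0.0274% and 0.112% of all genes passed as lower in clusters 0 to 5 and 0.0388%, 0.0375%, 0.0%, 0.0%, 0.0274% and 0.154% as higher. At an unadjusted p under 0.05, 15, 3, 7, 2, 26 and 11 of 82 members were lower in clusters 0 to 5 and 0 were higher, beside 3.35%, 2.6%, 3.05%, 2.9%, 3.56% and 3.88% of all genes that were lower and 3.3%, 2.9%, 2.84%, 2.49%, 2.94% and 4.47% that were higher. DESeq2 was not run within clusters. In all 6 clusters 55 of 82 members were below 0, beside 6.76% of the 6083 genes tested in every cluster, and the clusters share their hashtags. Rpl28 was below 0 in all 6, from -0.11 in cluster 2 to -0.32 in cluster 5, with an unadjusted p under 0.05 in 5 of them. These counts moved with single hashtags. Leaving out each in turn gave 2 to 22 lower members in cluster 0, 0 to 10 in cluster 1 and 3 to 10 in cluster 2. The ranges were 0 to 8, 16 to 23 and 1 to 27 in clusters 3, 4 and 5, with 0 to 2 higher in cluster 5. The shares of all genes in these refits are not given. The member share did not overlap in cluster 0, at 34.4% to 35.1% with IL-33 plus dopamine against 35.4% to 36.2% with IL-33, nor in cluster 2 or cluster 4. It overlapped in the other clusters, at 32.2% to 33.9% against 33.7% to 34.3% in cluster 1, 28.2% to 29.1% against 28.8% to 29.7% in cluster 3 and 28.9% to 31.0% against 30.5% to 31.6% in cluster 5.

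Cluster sizes moved with the groups as well. Cluster 0 held 25.3% to 30.4% of cells with IL-33 plus dopamine, against 16.1% to 24.4% with IL-33. Cluster 1, second in ribosomal protein share, held 11.7% to 21.6% of cells with IL-33 plus dopamine, against 26.2% to 27.8% with IL-33. The groups did not overlap in either, in opposite directions, and they overlapped in clusters 2 to 5. With the 6 clusters weighted equally, the member share was 31.9%, 31.5% and 31.1% with IL-33 plus dopamine, against 32.3%, 32.0% and 32.6% with IL-33. The groups did not overlap on that scale either. With PBS, cluster 0 held 32.1% to 32.5% of cells. Cluster 5 held 2.57% to 3.07% of cells with PBS, against 8.88% to 22.0% with IL-33. Between IL-33 and PBS the share of cells overlapped only in cluster 3. The part of cluster sizes in the fold changes of IL-33 against PBS was not tested.

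**Figure D5:**
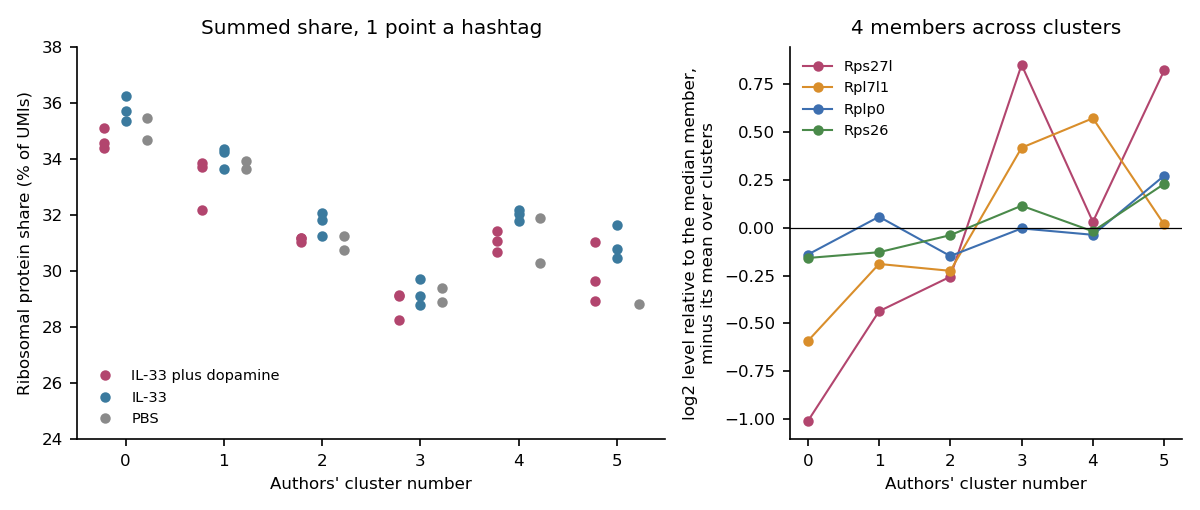
Left, percent of UMIs on ribosomal protein genes by cluster and hashtag (hashtag 1 is not drawn in cluster 5), on an axis from 24% to 38%. Cluster 0 is highest in every hashtag. Right, log2 level of 4 members over the clusters, relative to the median member and centred on their mean over clusters, where Rps27l spans 1.86.

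Companion genes in single cells are given for IL-33 plus dopamine against IL-33, and none passed edgeR's adjusted test. Mitochondrial ribosomal proteins had a median log2 fold change of -0.09 over 78 genes, with 13 lower and 2 higher at an unadjusted p under 0.05, beside 4.66% and 4.81% of all genes. Ribosome assembly factors had a median of 0.09 over 35 genes, with 6 higher and 1 lower, read beside the same shares. Nop56 had 57.3, 56.9 and 57.7 CPM in the IL-33 plus dopamine hashtags, against 46.7, 47.2 and 49.3 CPM in the IL-33 hashtags, without overlap. Fau and Rack1 had log2 fold changes of -0.04 ± 0.04 and -0.03 ± 0.05. For IL-33 against PBS, mitochondrial ribosomal proteins had a median of 0.09, with 14 higher and 2 lower at an unadjusted p under 0.05, beside 6.56% and 6.87% of all genes. Mrpl34 was the member of that list that passed edgeR's adjusted test, with 44.7, 36.9 and 35.8 CPM in the IL-33 hashtags, against 17.9 and 22 CPM in the PBS hashtags. Its log2 fold change was 0.89 ± 0.17 with an adjusted p of 0.032 (edgeR). Assembly factors had a median of -0.11 in that comparison, with 1 higher and 5 lower, read beside the same shares.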

How the data were processed

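Bulk values were the TPM deposited by the authors, and depth is unknown from TPM. Single-cell values were UMI counts per cell deposited by the authors with hashtag, treatment, cluster and the percent of mitochondrial UMIs. The submitters' processing notes name cutadapt 2.10, STAR 2.7.5c, RSEM 1.3.3, Cell Ranger 6.1.1, Seurat 4.0.2 and mm10. Their cell filters and handling of doublets are not stated. No cells were removed here and no doublet caller was run. TPM were tested as log2(TPM + 1) with limma 3.58.1 (trend) over genes with at least 1 TPM in at least 3 libraries. UMIs were summed per hashtag, or per hashtag and cluster with at least 20 cells, and tested with edgeR 4.0.16 (quasi-likelihood) in R 4.3.3, with DESeq2 1.42.0 as an alternative. P-values were adjusted by Benjamini-Hochberg over all tested genes, with a threshold of 0.05. Scripts were tested on simulated data. Named genes were a chosen set of members plus those with the largest change, highest or lowest level, and the smallest p per list. Members and lists were chosen with earlier results of these data known. Some genes are not reported here by name.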

Additional observations from a re-analysis of the deposited data

Results flagged for a closer look

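Rpl12 had a log2 fold change with dopamine of -0.26 ± 0.12 (SE) in bulk, lower in every IL-33 plus dopamine library. In single cells it was 0.050 ± 0.050, higher in every IL-33 plus dopamine hashtag. Neither passed, with adjusted p of 0.21 (limma) and 0.78 (edgeR), and within the 6 clusters Rpl12 was below 0 in 3. The opposite directions brought it here, and the difference between the data sets was not tested. Bulk mice were female and single-cell mice male, so sex and assay cannot be told apart.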

How the results depend on the processing

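In bulk, quantile normalization gave 1 member past the adjusted threshold as lower, 22 at an unadjusted p and a relative median of -0.12, array weights gave 53 past the adjusted threshold, and limma without a trend gave 4 at an unadjusted p. Leaving out single libraries gave 0 to 36 lower past the adjusted threshold, 29 to 65 lower and 0 to 1 higher at an unadjusted p, a relative median of -1.10 to -0.56 and a share difference of -8.85 to -4.75 percentage points. The shares of all genes that passed in these bulk refits are not given. For IL-33 plus dopamine against IL-33 at an unadjusted p, DESeq2 gave 2 lower, library sizes over other genes 14, and leaving out hashtags 2 to 12. Beside these counts, 2.27%, 5.14% and 2.74% to 5.32% of all genes were lower in that order. For IL-33 against PBS at an unadjusted p, DESeq2 gave 2 higher and 2 lower, library sizes over other genes 14 and 3, no filter 11 and 7, and cells of middle depth 4 higher. Of all genes, DESeq2 gave 3.16% higher and 3.87% lower, and library sizes over other genes 8.73% and 4.97%. No filter gave 6.58% and 4.95% of all genes, and cells of middle depth 4.43% higher. Leaving out hashtags gave 5 to 9 higher and 6 to 11 lower at an unadjusted p and 0 to 1 higher past the adjusted threshold, and no filter gave 2 there. For IL-33 plus dopamine against PBS at an unadjusted p, library sizes over other genes gave 0 lower and 1 higher, beside 1.92% and 3.13% of all genes. All 8 hashtags in 1 fit gave 6 lower and 1 higher there, beside 2.83% and 3.08%. Of 420 alternatives on counts, medians and shares 68 moved. The cause was not tested. Equally numbered bulk libraries had correlations of 0.0186, -0.0710 and -0.0018 after removal of the group means. These values cannot show whether a number marks a shared mouse or day, which the labels do not say. With the replicate number as a block 0 members passed, 49 were lower at an unadjusted p and the relative median was -0.82.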
